A study of Mus musculus with 9 samples.

Results

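The 9 genes described here, whose products make nitric oxide or reactive oxygen species, were followed through mouse colon tissue profiled by RNA-seq. They were taken by symbol from a fixed list: Nos2, Duox2, Duoxa2, Nox1, Noxo1, Noxa1, Cybb, Cyba and Ncf1. All 9 were found among 21498 distinct gene symbols, and none had a repeated row. Of these, 8 had values above 0, and Cyba was listed at 0 in all 9 samples.

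The study asked how a neutralizing antibody against S100a9, a calcium-binding protein of neutrophils and monocytes, changes gene expression in colitis-associated colorectal cancer. Each of 3 groups held 3 male ICR mice, an outbred stock, aged 5 weeks at the start and killed at the end of week 18. Control mice received neither carcinogen nor antibody. The other 2 groups were given 1 intraperitoneal dose of azoxymethane (AOM, a colon carcinogen, 10 mg/kg) and 3 cycles of dextran sulfate sodium (DSS, which injures the colonic epithelium) in the drinking water. The DSS cycles were 2% for 7 days and then, in both later cycles, 1.5% for 5 days. During the cycles one AOM/DSS group received control IgG (AOM/DSS + IgG Ab) and the other a rabbit polyclonal anti-S100a9 antibody (AOM/DSS + anti-S100a9 Ab), each at 1.5 mg/kg every 2 days. The labels call both AOM/DSS groups colorectal adenocarcinoma and the Control samples normal mucosa, whereas the study's text describes the anti-S100a9 Ab samples as colon mucosa. A tissue difference between the 2 AOM/DSS groups therefore cannot be told apart from the antibody. RNA came from whole tissue, so fewer cells of a type and less RNA per cell cannot be told apart either.

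Nitric oxide synthases make nitric oxide from arginine with tetrahydrobiopterin as cofactor, and the inducible form, Nos2, is switched on in epithelium and macrophages by bacterial products and cytokines. NADPH oxidases pass electrons across a membrane to oxygen. In the colon, Duox2 releases hydrogen peroxide at the apical face of the epithelium and Nox1 makes superoxide, while the Cybb oxidase gives the respiratory burst of phagocytes. Each oxidase needs partners: Duoxa2 brings Duox2 to the cell surface, Noxo1 and Noxa1 organise and activate Nox1, Ncf1 organises Cybb, and Cyba is the membrane partner of both Nox1 and Cybb.

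Values were FPKM, fragments scaled by transcript length and by the mapped fragments of the library, so levels of different genes can be set side by side per length. The number of fragments behind them is unknown, and the worth of 1 fragment in the other samples was about 0.895 to 1.18 times that in Control replicate 1. Of the symbols, 18.0% were listed at 0 in every sample. Some genes that every cell uses were nearly absent (the highest value of Gapdh was 0.755 FPKM and of Rps18 0.391 FPKM), so the zeros of Cyba are given only as listed. Colon epithelium was present in every sample: the summed level of 9 epithelial markers, Cdh1, Epcam and Vil1 among them, was 4395 to 5739 FPKM in Control, 3783 to 5405 with IgG Ab and 3854 to 4897 with anti-S100a9 Ab. Adipocyte markers (Adipoq, Cfd and Plin1, summed) were at 34.8 to 152 FPKM in Control, at 0 to 13.8 with IgG Ab and at 0.0944 to 1.22 with anti-S100a9 Ab, so the Control samples carried fat transcripts that the others largely lacked.

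Because Duox2 and its maturation factor are neighbours, their promoters are shown first. Duox2 lies on chromosome 2 at 122279247-122298449 on the minus strand (GRCm38, GENCODE M21) and Duoxa2 at 122298900-122302885 on the plus strand, so the pair is transcribed in opposite directions from a shared stretch of 450 bases between the genes. The start sites in RefSeq (GRCm38.p6) were 673 bases apart. That of Duox2, at 122298227, lies inside its GENCODE span, so most of the Duox2 window below is outside the shared stretch. The Nox1 promoter is given as an oxidase promoter on another chromosome. Each run holds 250 bases before and 50 after the start site, 5′ to 3′ on the strand of the gene: chr2:122298178-122298477 for Duox2 (minus strand), chr2:122298650-122298949 for Duoxa2 (plus strand) and chrX:134111805-134112104 for Nox1 (minus strand). Capitals mark matches, on either strand, to 5 motifs: the TATA box (TATAAA), the CCAAT box (CCAAT), a STAT site (TTCNNNGAA), an AP-1 site (TGANTCA) and the NF-kB consensus.
Duox2: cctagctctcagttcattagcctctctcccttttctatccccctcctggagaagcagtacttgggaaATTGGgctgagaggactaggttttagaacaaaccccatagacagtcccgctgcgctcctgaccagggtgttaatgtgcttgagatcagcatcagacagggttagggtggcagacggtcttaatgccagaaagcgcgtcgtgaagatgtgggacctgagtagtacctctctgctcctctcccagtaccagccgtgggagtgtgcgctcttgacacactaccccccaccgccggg
Duoxa2: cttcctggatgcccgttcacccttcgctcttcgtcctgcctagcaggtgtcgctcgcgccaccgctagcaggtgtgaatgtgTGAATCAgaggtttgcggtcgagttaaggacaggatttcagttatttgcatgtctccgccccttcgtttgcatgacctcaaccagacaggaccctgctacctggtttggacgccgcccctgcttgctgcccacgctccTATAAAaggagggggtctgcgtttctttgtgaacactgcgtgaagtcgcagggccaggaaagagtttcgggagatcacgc
Nox1: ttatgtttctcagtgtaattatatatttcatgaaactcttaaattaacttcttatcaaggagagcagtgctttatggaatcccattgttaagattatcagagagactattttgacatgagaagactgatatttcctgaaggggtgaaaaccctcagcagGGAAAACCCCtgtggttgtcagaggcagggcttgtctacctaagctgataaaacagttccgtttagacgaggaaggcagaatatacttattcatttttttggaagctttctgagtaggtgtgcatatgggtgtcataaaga

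Shares of promoters given here count a match at any position, on either strand, over 32851 mouse promoters of the same length. In the windows shown, the Duoxa2 promoter held a TATA box from 30 to 25 bases before the start site (13.6% of promoters hold a match) and an AP-1 match (7.81%). The Duox2 window held neither, and its CCAAT match stood on the opposite strand (37.4% of promoters hold one). The Nox1 window held an NF-kB match on the opposite strand (8.46% of promoters). None of the 3 held the STAT site, which 8.30% of promoters do. No 2 of these motif matches overlapped. Letter matches describe the sequence and do not show binding. Promoters of 8 of the 9 members were in the RefSeq table, with G and C at 35.3% in Cybb, 38.0% in Nox1, 55.3% in Duox2, 56.7% in Duoxa2 and 80.3% in Noxo1, against a median of 52.7% over all promoters.

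The order of the levels differed between the groups. In Control, Noxo1 was highest (mean 41.5 ± 11.3 FPKM, SD, n = 3), above Noxa1 (25.8 ± 4.67) in all 3 mice without overlap. Below it came Duox2 (23.2 ± 8.67), Duoxa2 (14.3 ± 7.47), Nox1 (10.5 ± 4.69), Ncf1 (9.28 ± 4.85), Cybb (6.82 ± 3.41) and Nos2 (2.54 ± 2.92), and each of these neighbours overlapped. With IgG Ab, Duoxa2 (45.1 ± 16.9) was first and Nos2 (16.4 ± 9.35) held rank 5, while Nox1 (5.37 ± 3.16) was last, again with every pair of neighbours overlapping. With anti-S100a9 Ab, Duox2 (29.8 ± 7.72) and Noxo1 (28.6 ± 4.82) stood at the top, Noxo1 did not overlap Duoxa2 (16.6 ± 5.08) beneath it, and Nos2 (5.88 ± 0.995) was last.

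**Figure D1:**
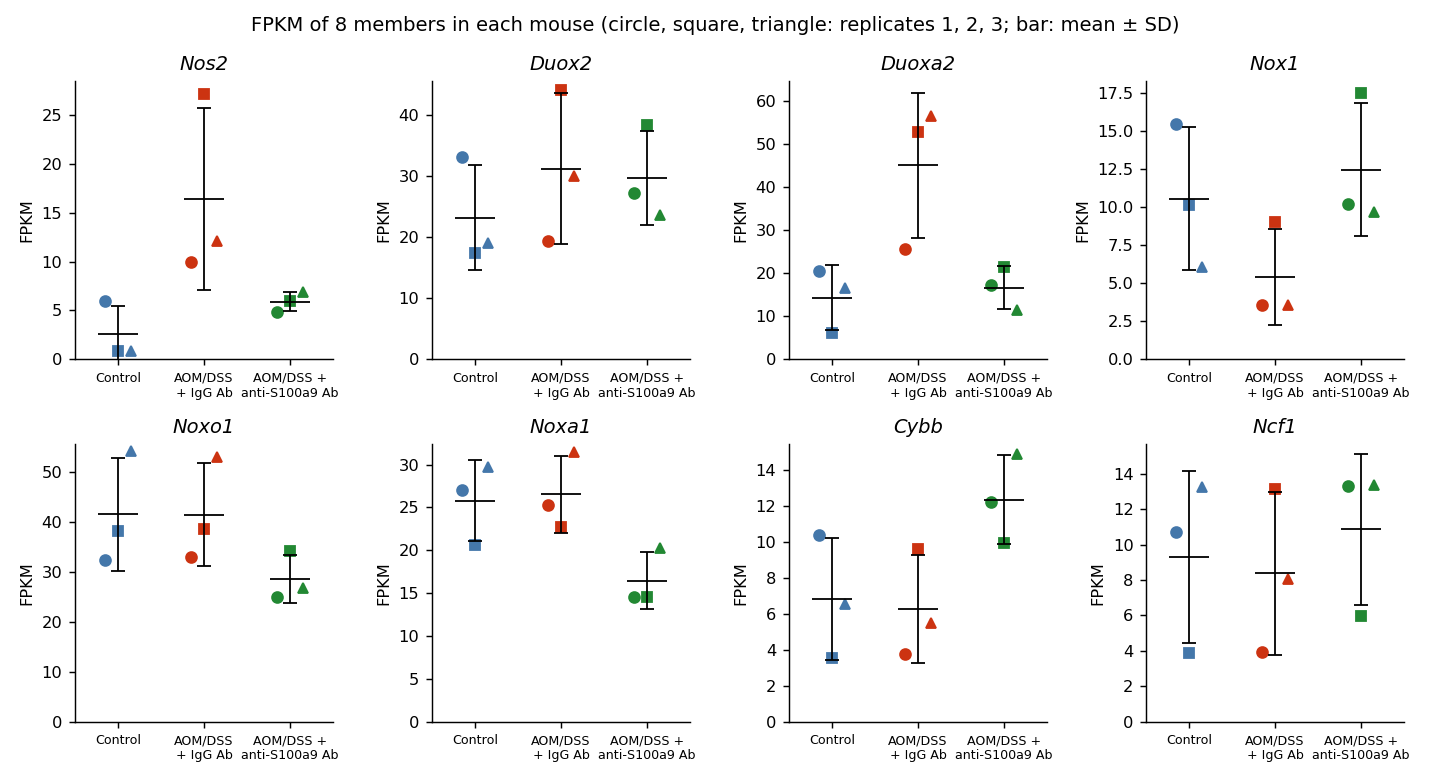
FPKM (vertical axes, from 0, each panel with its own scale) of the 8 members above 0 in each of the 9 mice, by group, where symbols give the replicate number and bars the mean ± SD (n = 3), cut off at 0 for Nos2 in Control. Nos2 and Duoxa2 are highest with IgG Ab, Nox1 is lowest there, and Noxa1 is lowest with anti-S100a9 Ab.

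The first comparison, AOM/DSS + IgG Ab against Control, set the disease model with control antibody against untreated mice. It takes in the carcinogen, DSS, the repeated IgG injections and the change from normal mucosa to adenocarcinoma tissue, which cannot be told apart, and fat transcripts were highest in Control. Nos2 was the only member called, by limma on log2(FPKM + 0.1) with an adjusted p under 0.05 over 15278 genes tested. That is 1 of 8 members tested called higher and 0 called lower, while 8.18% of all genes were called higher and 3.01% lower. The thresholds the study used (unadjusted p under 0.05 and more than 2-fold) were applied here and below to the limma fit, not to its DESeq test. Nos2 and Duoxa2 passed, 2 of 8, against 13.6% of all genes in either direction. The groups did not overlap for 2 members, both higher with IgG Ab, beside 20.7% of all genes higher and 10.2% lower. The median log2 fold change of the 8 members was 0.02 and that of all genes 0.09. Median-of-ratios scaling moved the latter by over 0.1, to -0.02, and quantile normalization to -0.03. Of all calls, 73.1% were higher with IgG Ab as reported, 64.0% after median-of-ratios scaling and 58.8% after quantile normalization.

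Nos2 (chromosome 11, 78920787-78960254, plus strand) was listed at 5.91, 0.868 and 0.839 FPKM in the Control mice. In the AOM/DSS + IgG Ab mice it was at 10.0, 27.2 and 12.1 FPKM, and every one of these exceeded every Control value. The ratio of the group means was 6.47, and the log2 fold change was 3.09 ± 0.68 (SE, 95% interval 1.54 to 4.64, adjusted p = 0.0242). Control replicate 1 stood well above the other two Control mice. Without it the log2 fold change was 3.97, and the range over all fits that left out 1 mouse was 2.64 to 3.97. The call was lost when Control replicate 2 (adjusted p = 0.0877), Control replicate 3 (0.0582) or IgG Ab replicate 3 (0.0514) was left out, and when only the 2 groups entered the limma fit (0.0756).

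Most neutrophil markers, but not Ly6g, were higher with IgG Ab than in Control. The summed level of 12 such genes was 91.0 to 121 FPKM in Control, 138 to 696 with IgG Ab and 102 to 182 with anti-S100a9 Ab, with Elane and Ngp at 0 in every Control mouse. Ly6g made up most of the Control sum and had a lower mean with IgG Ab, with overlapping groups, at 104 ± 14.4 FPKM in Control, 72.4 ± 40.1 with IgG Ab and 124 ± 36.4 with anti-S100a9 Ab. Without it, an omission chosen after its values were seen, the sums were 2.17 to 4.55, 112 to 601 and 12.5 to 31.7 FPKM. In both AOM/DSS groups most of that sum was S100a8 and S100a9, the latter the target of the antibody. Their means were 139 and 168 FPKM with IgG Ab and 7.45 and 9.16 with anti-S100a9 Ab. Mpo reached at most 0.159 FPKM and Elane at most 0.314 FPKM in any mouse. Of 11 neutrophil markers tested, 7 were called higher with IgG Ab than in Control, where 8.18% of all genes were. By contrast 0 of 12 macrophage and monocyte markers were called in either direction, with sums of 503 to 783, 397 to 791 and 510 to 685 FPKM. The part of either cell type in the Nos2 level was not tested.

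No difference was detectable for Duox2. Its values were 33.2, 17.5 and 19.0 FPKM in Control and 19.4, 44.1 and 30.1 FPKM with IgG Ab, and the ranges overlapped (log2 fold change 0.41, 95% interval -0.37 to 1.19, limma adjusted p = 0.462). Duoxa2 was at 20.5, 6.001 and 16.5 FPKM in Control and at 25.7, 52.9 and 56.6 FPKM with IgG Ab. All 3 IgG Ab mice were above all 3 Control mice, by 3.15-fold on the means, and the log2 fold change of 1.74 ± 0.48 had a limma adjusted p of 0.0510, just beyond the threshold. It passed in 1 of 9 limma fits that left out 1 mouse, that without IgG Ab replicate 1 (adjusted p = 0.0427). The highest adjusted p of those fits was 0.123. The last 695 bases of Duoxa2 overlap Duoxa1 on the opposite strand, and Duoxa1 itself was at 0.0361 to 0.108 FPKM in Control and 0.155 to 0.228 FPKM with IgG Ab. Whether counting used strand is not given in the sources used here.

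Taken within each mouse, the ratio of Duox2 to Duoxa2 was 1.62, 2.91 and 1.15 in the Control mice. In the IgG Ab mice it was 0.755, 0.835 and 0.531. Each Control mouse thus had more Duox2 than Duoxa2 per length, and each IgG Ab mouse less. The log2 ratio differed by -1.33 (two-sided exact permutation p = 0.1, the smallest that 3 against 3 mice allow, adjusted p = 0.245 over 27 comparisons of 9 pairs). A ratio within a mouse does not depend on the scaling of that library.

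Nox1 lies on the X chromosome (134086421-134221956, minus strand, a GENCODE span that also takes in Xkrx on the same strand and Arl13a on the opposite one). It was at 15.4, 10.1 and 6.06 FPKM in Control and at 3.56, 9.02 and 3.54 FPKM with IgG Ab. IgG Ab replicate 2 fell inside the Control range, while the other two IgG Ab mice were below it. The log2 fold change was -1.003 (95% interval -2.02 to 0.01, limma adjusted p = 0.175). Without IgG Ab replicate 2 it was -1.44 and passed (adjusted p = 0.0480), the only 1 of 9 fits leaving out 1 mouse that did. The highest adjusted p of those fits was 0.399. Surface colonocyte markers were also lowest with IgG Ab: the summed level of Aqp8, Car1, Car4 and Slc26a3 was 818 to 1171 FPKM in Control, 29.0 to 211 with IgG Ab and 507 to 1485 with anti-S100a9 Ab. Of these 4, 3 were called lower with IgG Ab than in Control, where 3.01% of all genes were. Within the IgG Ab group replicate 2 was highest for both. In the other groups the orders differed: in Control the marker sum was highest in replicate 2 and Nox1 in replicate 1, and with anti-S100a9 Ab the marker sum was highest in replicate 3, where Nox1 was lowest. The part of these cells in the Nox1 level was not tested.

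For the partners of Nox1 the groups overlapped. Noxo1 (chromosome 17, 24696234-24700529, plus strand, of which 2581 bases overlap Tbl3 on the opposite strand) was at 32.3, 38.1 and 54.1 FPKM in Control and at 32.8, 38.6 and 52.9 FPKM with IgG Ab, a log2 fold change of 0.00 (95% interval -0.54 to 0.55). Noxa1 (chromosome 2, 25085667-25095149, minus strand, with 50 bases overlapping Entpd8 on the opposite strand) was at 27.1, 20.6 and 29.7 FPKM and then at 25.3, 22.8 and 31.5 FPKM, a log2 fold change of 0.04 (95% interval -0.41 to 0.50). Both signs turned under median-of-ratios scaling and under quantile normalization. Neither interval reaches a 2-fold change. The log2 ratio of Nox1 to Noxa1 with IgG Ab minus that in Control was -1.05, with overlapping groups (two-sided exact permutation p = 0.2, adjusted p = 0.318).

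Both phagocyte oxidase genes overlapped between the groups. Cybb (X chromosome, 9435252-9487771, minus strand) was at 10.4, 3.55 and 6.55 FPKM in Control and 3.75, 9.60 and 5.51 FPKM with IgG Ab (log2 fold change -0.09, 95% interval -1.06 to 0.87, limma adjusted p = 0.907). Ncf1 (chromosome 5, 134220053-134229625, minus strand, overlapped on the opposite strand by Gtf2ird2) was at 10.7, 3.87 and 13.2 FPKM and at 3.94, 13.1 and 8.05 FPKM (log2 fold change -0.13, 95% interval -1.42 to 1.15, adjusted p = 0.899). Those wide intervals allow a change of 2-fold in either direction for Ncf1. Cyba lies on chromosome 8 at 122424776-122432930, inside Gm20388 on the opposite strand. No ratio with it could be computed.

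**Figure D2:**
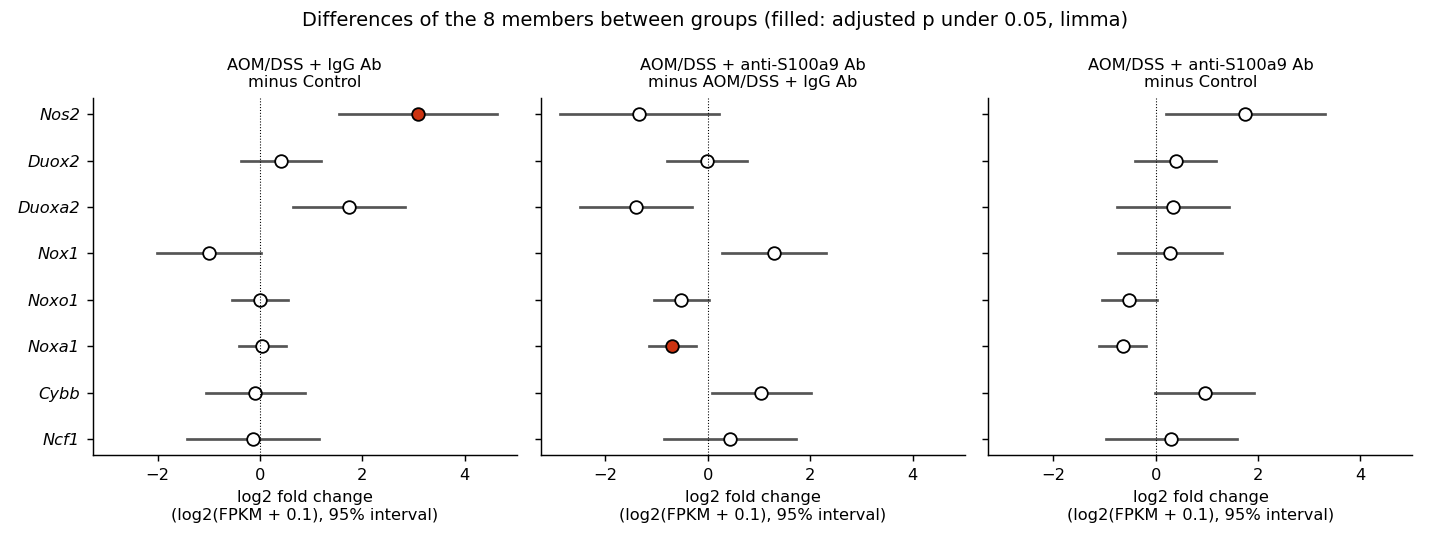
Log2 fold change of each member (horizontal axis, on the log2(FPKM + 0.1) scale) with its 95% interval in the 3 comparisons, filled where the limma adjusted p was under 0.05. Nos2 is filled in the first panel and Noxa1 in the second, and no point is filled in the third, where Nos2 (1.75) lies farthest from 0.

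The second comparison, anti-S100a9 Ab against IgG Ab in AOM/DSS mice, asked what the antibody changed. Noxa1, the activator of Nox1, was the only member called, and it fell. The count was thus 0 of 8 called higher and 1 of 8 called lower, where 6.72% of all genes were called higher and 14.4% lower. Under the study's thresholds Duoxa2, Nox1 and Cybb passed in the limma fit (3 of 8, against 16% of all genes in either direction), and Nos2 did not. The study itself, by DESeq on counts, listed Nos2 among the genes raised in AOM/DSS mice and significantly lowered by the antibody. Groups did not overlap for 5 of the 8: Nox1 and Cybb were higher with anti-S100a9 Ab, and Nos2, Duoxa2 and Noxa1 lower. Among all genes 18.5% did not overlap and were higher, and 28.5% did not overlap and were lower. The members' median log2 fold change was -0.27 and that of all genes -0.06. Of all calls, 31.9% were higher as reported, 46.9% after median-of-ratios scaling and 45.5% after quantile normalization. These mice serve in both comparisons, so the 2 sets of differences share the IgG Ab values.

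Noxa1 was at 14.6, 14.5 and 20.3 FPKM with anti-S100a9 Ab, against 25.3, 22.8 and 31.5 FPKM with IgG Ab. The highest of the first 3 values lay below the lowest of the others. The log2 fold change was -0.69 ± 0.20 (95% interval -1.15 to -0.23, limma adjusted p = 0.0427), a 1.61-fold difference of the means and under the 2-fold limit of the study. Median-of-ratios scaling (adjusted p = 0.0787), quantile normalization (0.0702) and a fit with no intensity trend (0.0594) ended the call, as did leaving out Control replicate 1 (0.0560), IgG Ab replicate 1 (0.0791), IgG Ab replicate 3 (0.118), anti-S100a9 Ab replicate 1 (0.133) or anti-S100a9 Ab replicate 2 (0.133).

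Noxo1, the organiser, was at 24.9, 34.1 and 26.8 FPKM with anti-S100a9 Ab (log2 fold change -0.52, 95% interval -1.06 to 0.03, limma adjusted p = 0.143), with 1 mouse inside the IgG Ab range. Nox1 was at 10.2, 17.5 and 9.64 FPKM, and its lowest value exceeded the highest IgG Ab value of 9.02 FPKM. Its log2 fold change was 1.29 ± 0.45 (95% interval 0.27 to 2.30, adjusted p = 0.0697). It passed in 1 of 9 fits that left out 1 mouse, that without IgG Ab replicate 2 (0.0220). The highest adjusted p of those fits was 0.202. The ratio of Nox1 to Noxa1 was 0.700, 1.21 and 0.475 with anti-S100a9 Ab and 0.140, 0.396 and 0.112 with IgG Ab. All 3 anti-S100a9 Ab mice thus had more Nox1 for each unit of Noxa1 (log2 ratio higher by 1.98; two-sided exact permutation p = 0.1, adjusted p = 0.245). The ratio of Noxo1 to Noxa1 overlapped in every comparison, with a mean log2 ratio of 0.67 in Control, 0.63 with IgG Ab and 0.80 with anti-S100a9 Ab. Of the 4 surface colonocyte markers, 3 were called higher with anti-S100a9 Ab than with IgG Ab (6.72% of all genes were), and their part in the Nox1 level was not tested.

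Duox2 was at 27.3, 38.4 and 23.6 FPKM with anti-S100a9 Ab, within the IgG Ab range (log2 fold change -0.02, 95% interval -0.80 to 0.76), and its sign turned under both scalings. Duoxa2 was at 17.2, 21.4 and 11.3 FPKM, all below the lowest IgG Ab value, and 2.71-fold lower on the means (log2 fold change -1.40 ± 0.48, limma adjusted p = 0.0680). That difference passed without Control replicate 2 (adjusted p = 0.0363) and with only the 2 groups in the fit (0.0414). These were 1 of 9 fits leaving out 1 mouse and 1 of 9 other settings. The highest adjusted p was 0.182 in the former and 0.105 in the latter. The ratio of Duox2 to Duoxa2 was 1.59, 1.79 and 2.09, above 1 in every anti-S100a9 Ab mouse and below 1 in every IgG Ab mouse (log2 ratio higher by 1.38; two-sided exact permutation p = 0.1, adjusted p = 0.245).

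Nos2 was at 4.87, 5.91 and 6.85 FPKM with anti-S100a9 Ab. These values lay close together and below all IgG Ab values, 2.80-fold lower on the means. The log2 fold change of -1.34 ± 0.68 did not pass (95% interval -2.89 to 0.21, limma adjusted p = 0.177). The adjusted p fell to 0.0393 without Control replicate 1 and to 0.04997 with only the 2 groups in the fit, and rose to 0.377 without IgG Ab replicate 2. Relative to Duox2, Nos2 was at 0.515, 0.615 and 0.403 with IgG Ab, at 0.179, 0.154 and 0.290 with anti-S100a9 Ab and at 0.178, 0.0497 and 0.0441 in Control. The IgG Ab mice did not overlap either of the other groups (log2 ratio higher by 2.68 than in Control, and -1.32 with anti-S100a9 Ab minus IgG Ab, each with a two-sided exact permutation p of 0.1 and an adjusted p of 0.245). Duox2 against Nox1 had the same shape, at 5.46, 4.90 and 8.49 with IgG Ab and between 1.72 and 3.14 in the 6 other mice.

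**Figure D3:**
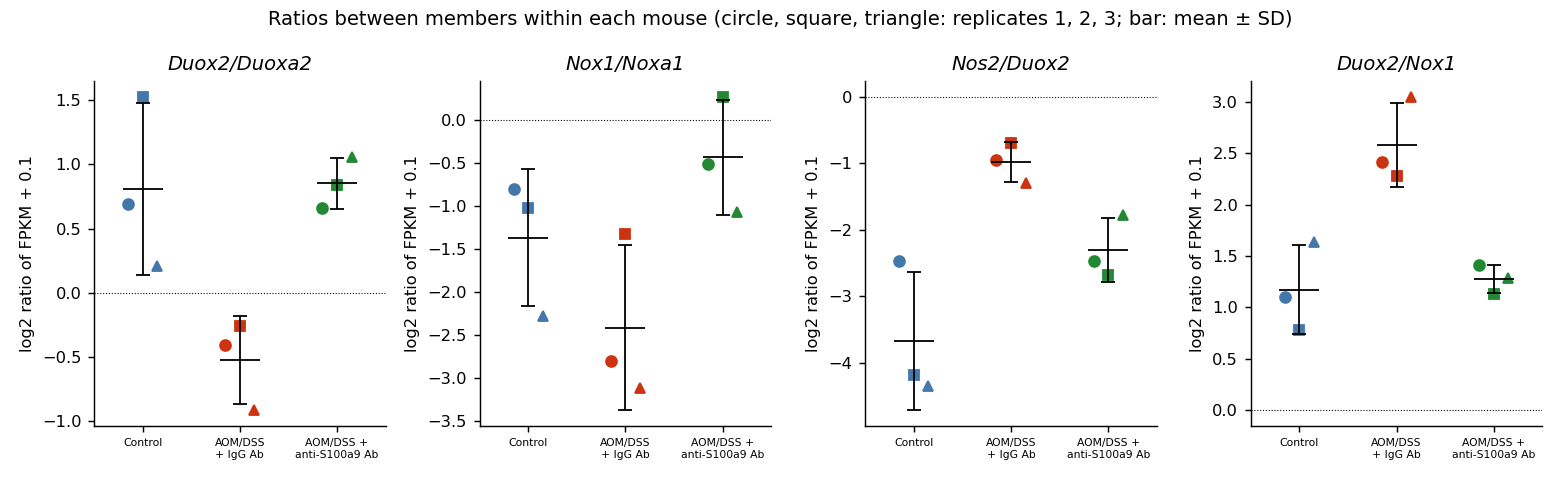
Log2 ratios of FPKM + 0.1 (vertical axes) for 4 pairs of members within each mouse, by group, where symbols give the replicate number, bars the mean ± SD (n = 3) and the dotted line equal levels. The IgG Ab mice do not overlap either other group in Duox2/Duoxa2 (mean -0.52), Nos2/Duox2 and Duox2/Nox1, whereas for Nox1/Noxa1 they overlap Control.

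Cybb was at 12.2, 9.94 and 14.9 FPKM with anti-S100a9 Ab, and the lowest of these was just above the highest IgG Ab value of 9.60 FPKM (log2 fold change 1.05, 95% interval 0.08 to 2.01, limma adjusted p = 0.105). It passed in 1 of 9 fits that left out 1 mouse, that without IgG Ab replicate 2 (adjusted p = 0.0462). The highest adjusted p of those fits was 0.255. Ncf1, at 13.3, 5.95 and 13.3 FPKM, overlapped (log2 fold change 0.44, 95% interval -0.85 to 1.73, adjusted p = 0.587). Leukocyte markers varied over the same samples, and their part in the levels of Cybb and Ncf1 was not tested. Ptprc, the pan-leukocyte phosphatase CD45, was at 26.7, 7.01 and 17.0 FPKM in Control, 4.81, 18.9 and 3.41 with IgG Ab and 34.9, 13.3 and 34.8 with anti-S100a9 Ab. The B cell markers Cd79a, Cd79b and Ms4a1 summed to 101, 22.7 and 195 FPKM in Control, 6.64, 88.1 and 10.9 with IgG Ab and 143, 41.8 and 156 with anti-S100a9 Ab. Replicate 2 was the lowest of its group for Cybb, Ncf1, Ptprc and the B cell sum in Control and with anti-S100a9 Ab, and the highest with IgG Ab. Per unit of Ptprc, a ratio added after the data were seen, Cybb was at 0.387, 0.506 and 0.385 in Control, at 0.781, 0.507 and 1.62 with IgG Ab and at 0.350, 0.747 and 0.427 with anti-S100a9 Ab, so the groups overlapped. The mean log2 ratio with anti-S100a9 Ab minus that with IgG Ab was -0.83 (two-sided exact permutation p = 0.2). Ncf1 per unit of Ptprc was lower with anti-S100a9 Ab (0.382, 0.447 and 0.383) than with IgG Ab (0.820, 0.695 and 2.36) without overlap. The two-sided exact permutation p was 0.1, the smallest possible, and was not adjusted. Both ratios were highest in IgG Ab replicate 3, where Ptprc was lowest.

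**Figure D4:**
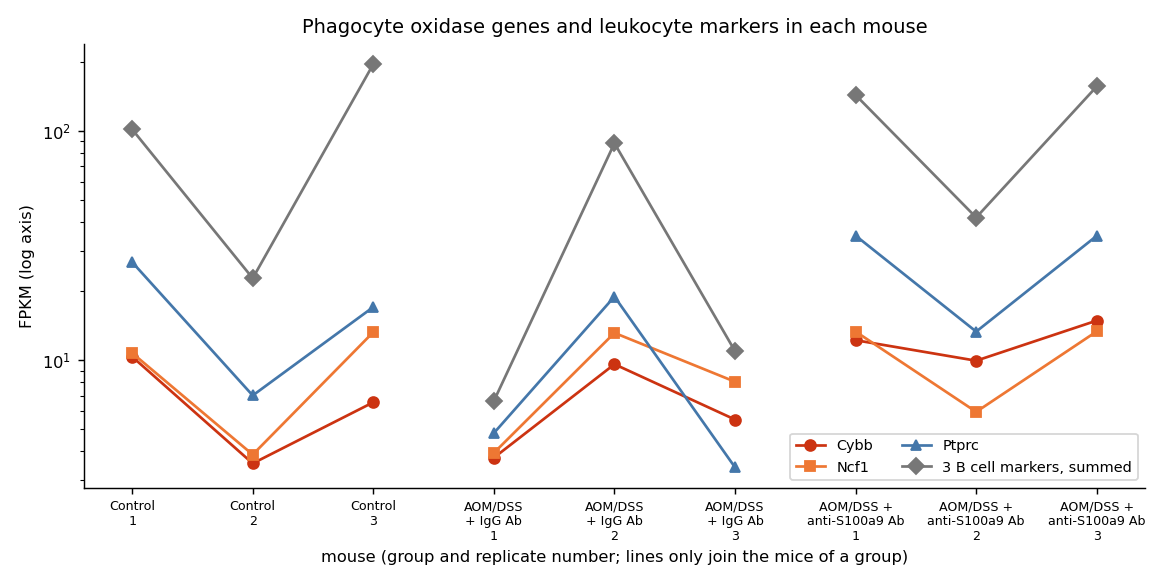
FPKM on a log axis of Cybb, Ncf1, Ptprc and the sum of 3 B cell markers in each of the 9 mice (horizontal axis), with lines that only join the mice of a group. Within a group the 4 curves bend the same way, except that Ptprc (3.41 FPKM) is lowest in IgG Ab replicate 3, and the Cybb values with anti-S100a9 Ab (9.94 to 14.9) sit above those with IgG Ab.

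The third comparison, anti-S100a9 Ab against Control, asked how far the antibody-treated AOM/DSS mice stood from untreated mice. By limma 0 of 8 members were called, and 2 had an unadjusted p under 0.05 (Nos2 and Noxa1). Of all genes, 0.00655% were called higher and 0.00655% lower. Under the study's thresholds only Nos2 passed among the members, 1 of 8 against 3.15% of all genes. No member was higher without overlap (17.3% of all genes were) and 1, Noxa1, was lower without overlap (13.7%). Nos2 was 2.31-fold higher on the means, with a log2 fold change of 1.75 (95% interval 0.20 to 3.30, adjusted p = 0.301), and Control replicate 1, at 5.91 FPKM, was level with the median anti-S100a9 Ab mouse. Noxa1 had a log2 fold change of -0.65 (95% interval -1.10 to -0.19, adjusted p = 0.301). Duox2 (0.39), Duoxa2 (0.34), Nox1 (0.28) and Ncf1 (0.31) had intervals that spanned 0 and reached beyond a 2-fold increase. Cybb had a log2 fold change of 0.96 (95% interval -0.01 to 1.92) and Noxo1 one of -0.51 (95% interval -1.06 to 0.03).

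The paralogues Duox1, Duoxa1 and Nox4 were low. Duox1 was at 0.0171 to 0.291 FPKM over the 9 mice and Duoxa1 at 0.0361 to 0.228, far below Duox2 and Duoxa2. Nox4 was at 0.101 to 0.133 FPKM in Control, 0.200 to 0.432 with IgG Ab and 0.185 to 0.265 with anti-S100a9 Ab (log2 fold change with IgG Ab 0.80, limma adjusted p = 0.109). The endothelial synthase Nos3 was between 1.14 and 3.66 FPKM and overlapped throughout. In Control its 1.21 to 1.66 FPKM lay within the range of Nos2 there (0.839 to 5.91). The neuronal synthase Nos1 was at 0.108 to 0.675 FPKM with IgG Ab and 1.49 to 1.97 with anti-S100a9 Ab, and it was called higher (log2 fold change 2.11 ± 0.53, adjusted p = 0.0272). Nos1 and the summed smooth muscle markers (given below) had the same order within the IgG Ab mice, but not within the other groups. The part of muscle wall in the Nos1 level was not tested. The phagocyte subunits Ncf4 and Rac2 were not called: Ncf4 was at 7.43 to 30.4 FPKM and Rac2 at 7.92 to 49.3, and Rac2 had its lowest Control and anti-S100a9 Ab values in replicate 2, as Cybb did. Of 8 genes tested in this list, 0 were called with IgG Ab against Control (8.18% of all genes were called higher and 3.01% lower). With anti-S100a9 Ab against IgG Ab 1 was called, higher, as were 6.72% of all genes.

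Genes that supply or use arginine and tetrahydrobiopterin were called in both comparisons. Of 13 genes, 4 were called higher with IgG Ab than in Control and 0 lower, and 6 were called lower with anti-S100a9 Ab than with IgG Ab and 0 higher (medians 0.63 and -0.62). As shares these were 30.8% higher with IgG Ab (8.18% of all genes) and 46.2% lower with antibody (14.4% of all genes). The split of all calls into higher and lower moved with the scaling, as given above. Arg1, the arginase that competes with Nos2 for arginine, was at 0.192, 0.172 and 0.195 FPKM in Control, at 11.9, 10.3 and 59.5 with IgG Ab and at 0.475, 0.461 and 0.0701 with anti-S100a9 Ab. Its rise (log2 fold change 6.09 ± 0.69, adjusted p = 0.00174) and its fall with antibody (-5.68 ± 0.69, adjusted p = 0.00371) were both called. Nos2 exceeded Arg1 per length in all 6 mice of the other groups, but in only 1 of the 3 IgG Ab mice (ratios 0.842, 2.63 and 0.204). The log2 ratio of Nos2 to Arg1 with IgG Ab minus that in Control was -3.004, without overlap (two-sided exact permutation p = 0.1, adjusted p = 0.245). Arg2, the mitochondrial form, was not called (3.32 to 13.6 FPKM with IgG Ab, 2.43 to 4.78 in Control). Gch1, the entry enzyme of tetrahydrobiopterin synthesis, rose with IgG Ab from 4.32 ± 0.953 to 12.6 ± 3.36 FPKM (log2 fold change 1.50, adjusted p = 0.00768) and was lower with antibody (-0.99, adjusted p = 0.0257). Ddah1 and Ddah2, which break down methylarginines that inhibit nitric oxide synthases, rose with IgG Ab (1.64 and 1.68, adjusted p = 0.0146 and 0.0162). Ddah2 and the argininosuccinate lyase Asl were lower with antibody (-1.77 and -0.97, adjusted p = 0.0129 and 0.0216).

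Of 5 genes tested for the nitric oxide receptor and its cGMP signal, 1 was called lower with IgG Ab than in Control, where 3.01% of all genes were. It was the soluble guanylate cyclase subunit Gucy1a3 (5.09 ± 1.30 in Control against 2.09 ± 0.817 FPKM, log2 fold change -1.29, limma adjusted p = 0.0365). With anti-S100a9 Ab against IgG Ab 4 of 5 were called higher, where 6.72% of all genes were. They were Prkg1 (log2 fold change 2.60), Gucy1a3 (1.71), Pde5a (1.12) and Gucy1b3 (1.12), with limma adjusted p between 0.0125 and 0.0205. These are genes of smooth muscle as well. The summed level of 5 smooth muscle markers was 1250 to 1989 FPKM in Control, 354 to 2426 with IgG Ab and 1519 to 2787 with anti-S100a9 Ab, and 1 of the 5 was called higher with anti-S100a9 Ab than with IgG Ab. Their part in the cGMP genes was not tested.

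Among 9 tested genes for peroxidases and other producers of oxidants, 3 fell and 1 rose with IgG Ab against Control. Of all genes 3.01% were called lower and 8.18% higher in that comparison. The monoamine oxidases Maob (log2 fold change -2.28, adjusted p = 0.0190) and Maoa (-1.40, adjusted p = 0.0311), which release hydrogen peroxide, and lactoperoxidase, Lpo (-1.85, adjusted p = 0.0487), which consumes it, fell. Sod3, the extracellular enzyme that turns superoxide into hydrogen peroxide, rose (1.15, adjusted p = 0.0314). Maob (2.24, limma adjusted p = 0.0172) and Maoa (1.32, adjusted p = 0.0278) were higher with antibody, 2 of the 9, where 6.72% of all genes were.

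Of 27 antioxidant and glutathione genes, 3 rose and 1 fell with IgG Ab, and 1 was higher and 9 lower with anti-S100a9 Ab than with IgG Ab (medians 0.35 and -0.37). The counts with IgG Ab, 11.1% higher and 3.704% lower, were near the shares over all genes (8.18% and 3.01%). Those with antibody were 3.704% higher and 33.3% lower, against 6.72% and 14.4% of all genes. Gpx2, the gut epithelial glutathione peroxidase, was at 246 ± 78.6 FPKM in Control, 616 ± 179 with IgG Ab and 196 ± 38.8 with anti-S100a9 Ab (log2 fold changes 1.33 and -1.62, adjusted p = 0.0294 and 0.0137). Hmox1, the inducible heme oxygenase, had log2 fold changes of 1.89 and -1.40 (adjusted p = 0.0154 and 0.0313), and the thioredoxin reductase Txnrd1 rose by 0.65 (adjusted p = 0.0425). Prdx6, a peroxiredoxin, fell from 1170 ± 102 to 271 ± 104 FPKM (-2.19, adjusted p = 0.00428) and was at 655 ± 53.6 FPKM with antibody (1.36, adjusted p = 0.0214). Gpx7, a peroxidase of the endoplasmic reticulum, was lower with antibody (-2.09, adjusted p = 0.0126).

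Among 10 tested cytokines and transcription factors known to induce Nos2, Duox2 or Nox1, 5 were called higher with IgG Ab than in Control and 0 lower, and 3 were called lower with anti-S100a9 Ab than with IgG Ab (medians 0.70 and -0.45). As shares these were 50% higher with IgG Ab (8.18% of all genes) and 30% lower with antibody (14.4% of all genes). Tnf was at 1.65 ± 1.10 FPKM in Control, 8.93 ± 3.68 with IgG Ab and 2.43 ± 0.97 with anti-S100a9 Ab, and its rise was called (log2 fold change 2.59, adjusted p = 0.0358). Il1b went from 3.39 ± 1.55 to 14.7 ± 5.49 FPKM (2.13, adjusted p = 0.0155) and was lower with antibody (-1.56, adjusted p = 0.0322). Stat3 (0.72, adjusted p = 0.00956) and the NF-kB subunit Rela (0.61, adjusted p = 0.0429) rose with IgG Ab, and Rela was lower with antibody (-0.65, adjusted p = 0.0263). Over all 72 tested pathway genes, 13 were called higher and 5 lower with IgG Ab, 8 higher and 18 lower with anti-S100a9 Ab against IgG Ab, and by limma 0 with anti-S100a9 Ab against Control, where 11 had an unadjusted p under 0.05. As shares of the 72, these were 18.1% higher and 6.94% lower with IgG Ab (8.18% and 3.01% of all genes), and 11.1% higher and 25% lower with antibody (6.72% and 14.4% of all genes). Without 1 mouse the first count ranged from 4 to 20 called (4 without Control replicate 2), and the second from 2 to 29 (2 without anti-S100a9 Ab replicate 2 and 5 without anti-S100a9 Ab replicate 1).

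**Figure D5:**
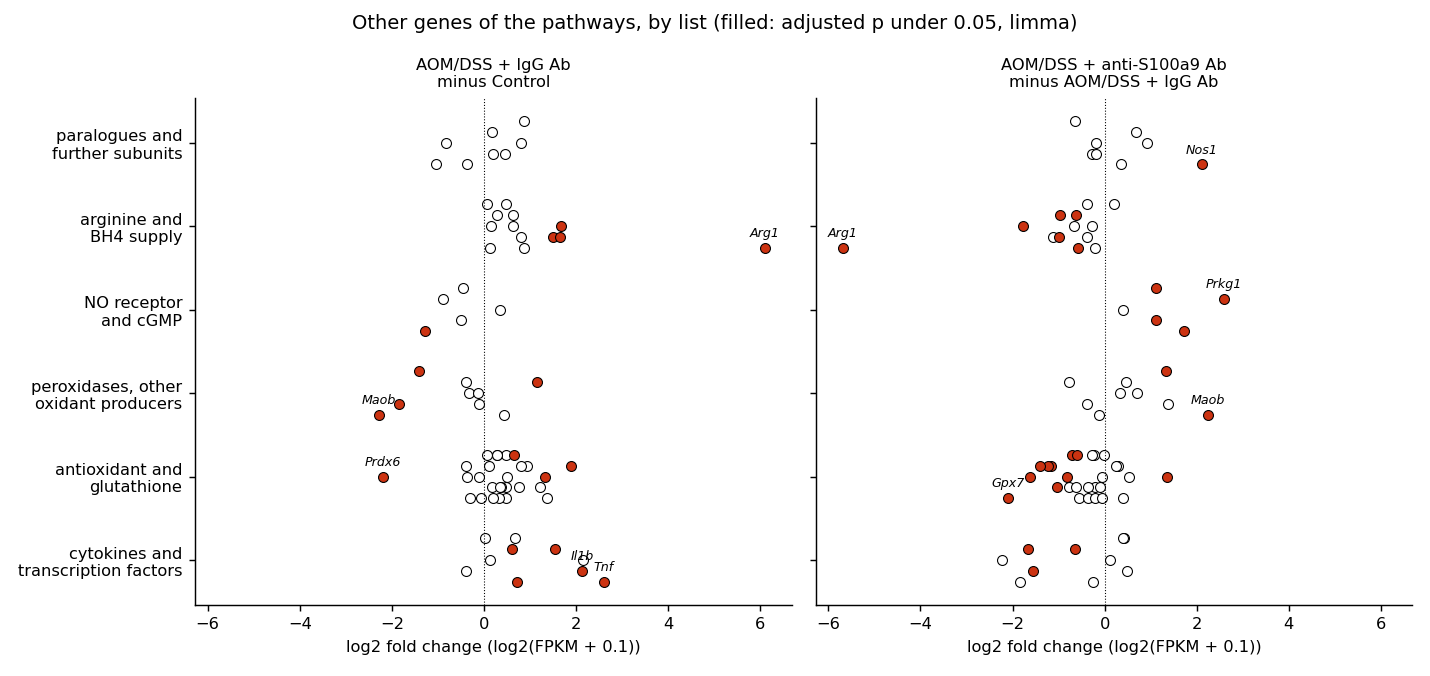
Log2 fold changes (horizontal axes, log2(FPKM + 0.1) scale) of the other pathway genes, by list, with IgG Ab against Control (left) and anti-S100a9 Ab against IgG Ab (right), filled where the limma adjusted p was under 0.05. Arg1 lies far to the right at 6.09 in the first panel and far to the left at -5.68 in the second, and 4 of 5 genes of the nitric oxide receptor list are filled on the right.

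The genes whose levels ran closest to each member over the 9 mice were found by the root mean square difference of centred log2(FPKM + 0.1), among 13073 genes with a mean of at least 1 FPKM in a group. Noxo1 was nearest to Cldn3 (difference 0.05), a tight junction protein of epithelium, and Noxa1 to Ftl1 (0.12), a ferritin light chain. Nox1 was nearest to Bmp8a (0.23) and Gk (0.24). Cybb was nearest to Fyb (0.17) and Plek (0.20) and Ncf1 to Fermt3 (0.17), genes of blood cells. Nos2 was nearest to Hist1h3g (0.36) and then Clec4e (0.73), a myeloid lectin receptor. The Control mean of Hist1h3g was 0.0734 FPKM, below the pseudocount of 0.1. Duoxa2 was nearest to Arsi (0.34) and Osm (0.42), a myeloid cytokine. Duox2 was nearest to Stom (0.26), with C5ar1 and Clec4a2 almost as near (0.27 each). Among the members themselves Noxo1 and Noxa1 were the closest pair (0.29), followed by Cybb and Ncf1 (0.45), while Duox2 and Duoxa2 were at 0.74. The spread of each member around its own mean was 0.36 for Noxo1, 0.38 for Noxa1, 0.69 for Cybb, 0.70 for Ncf1, 0.44 for Duox2 and 0.95 for Duoxa2. Genes that vary little lie near each other on this measure, so the order of pairs depends in part on the spread. With a pseudocount of 1, 12 of these 24 nearest genes were named again.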

How the data were processed

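RNA of colon tissue from 9 male ICR mice (3 a group) was analysed, labelled normal colorectal mucosa or colorectal adenocarcinoma. The authors deposited 1 table of FPKM values a sample, with 21544 rows. The unit was inferred from the values and from Cufflinks, which the submitters' processing notes name beside TopHat, HTSeq, DESeq and the build GRCm38 (versions other than the build not given in the sources used here). The study tested counts with DESeq, and counts were not used here. The members and lists were chosen with earlier results of these data known.

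Repeated symbols (46 rows) were summed. The 15278 genes that reached 0.1 FPKM in 3 or more samples were tested on log2(FPKM + 0.1) with limma 3.58.1 (R 4.3.3), all 9 samples in 1 fit with an intensity trend, and p-values adjusted by Benjamini-Hochberg over all genes. The pseudocount makes fold changes of low genes smaller. The test was tested on simulated data. Member ratios were compared by two-sided exact permutation tests (scipy 1.17.1). Absolute depth is unknown, so no counting interval is given. No batch is given in the labels. Named pathway genes were up to 4 a list with adjusted p under 0.05 and a mean of at least 1 FPKM in a group, largest change first, plus Nos1, Nos3, Nox4, Duox1, Duoxa1, Ncf4, Rac2, Arg1 and Arg2. Some genes of the lists are not reported here. Of the symbols, 97.5% were found in GENCODE M21. Alternatives were other pseudocounts (0.01 and 1), filters (none, 1 FPKM), scalings and designs, and leaving out each mouse.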

Additional observations from a re-analysis of the deposited data

How the results depend on the processing

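Counts of members called moved with the setting. With IgG Ab against Control, the study's thresholds gave 2 and a fit of only the 2 groups 0, against 1 as reported. With anti-S100a9 Ab against IgG Ab, the study's thresholds and a fit of only the 2 groups each gave 3, the replicate block gave 2, and median-of-ratios scaling, quantile normalization and a fit with no intensity trend each gave 0. With anti-S100a9 Ab against Control, the study's thresholds gave 1 member and 3 other pathway genes. A fit of only the 2 groups left 4 of the 18 other pathway genes called with IgG Ab against Control, with fewer samples behind the spread. Leaving out 1 mouse gave 0 to 2 members with IgG Ab against Control, 0 to 3 with anti-S100a9 Ab against IgG Ab, and 4 to 20 and 2 to 29 other pathway genes. The cause was not tested. Of 27 ratio comparisons, 11 were without overlap with all mice and 11 to 17 without 1 mouse. Leaving out a mouse cannot create an overlap, so that count could only rise and is no test of the ratios. The share over other gene pairs was not computed. Among single genes, 20.7% were higher and 10.2% lower without overlap with IgG Ab against Control. With anti-S100a9 Ab these shares were 18.5% and 28.5% against IgG Ab, and 17.3% and 13.7% against Control. The 11 therefore cannot be read as particular to these pairs.

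Signs turned for values near 0. Median-of-ratios scaling and quantile normalization gave 0.10 and 0.15 for Duox2 with anti-S100a9 Ab against IgG Ab, and with IgG Ab against Control -0.12 and -0.058 for Noxo1 and -0.079 and -0.065 for Noxa1. Without 1 mouse, the ranges with IgG Ab against Control were -0.19 to 0.21 for Noxo1, -0.11 to 0.15 for Noxa1, -0.49 to 0.27 for Cybb and -0.67 to 0.32 for Ncf1. With anti-S100a9 Ab against IgG Ab they were -0.32 to 0.27 for Duox2 and -0.013 to 0.84 for Ncf1, and against Control -0.19 to 0.69 for Duoxa2, -0.059 to 0.61 for Nox1 and -0.22 to 0.69 for Ncf1. Of 432 refits of member fold changes, 388 kept direction and side of the threshold. A pseudocount of 1 lowered the log2 ratio difference of Nos2 to Arg1 with anti-S100a9 Ab against IgG Ab to 2.74.

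The labels number the mice 1 to 3 in each group. Deviations of same-numbered mice correlated at -0.19 to 0.15 between IgG Ab and Control and -0.05 to 0.12 between anti-S100a9 Ab and IgG Ab. Between anti-S100a9 Ab and Control they correlated at -0.13 to 0.25. Different-numbered mice correlated at -0.27 to 0.19 over the 3 comparisons. So few mice cannot show whether those with the same number shared a batch, and the labels name neither a pairing nor a batch. With the replicate block, Nox1 also passed with anti-S100a9 Ab against IgG Ab (adjusted p = 0.0423), and the number of other pathway genes called was 16 with IgG Ab against Control and 27 with anti-S100a9 Ab against IgG Ab.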
